A study of Mus musculus with 6 samples.

Results

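The laminins, nidogens and heparan sulfate proteoglycans of the basement membrane were followed here in mouse hearts through 10 listed genes: Lama2, Lama4, Lama5, Lamb1, Lamb2, Lamc1, Nid1, Nid2, Hspg2 and Agrn. They are the non-collagen basement membrane genes named by a list, whatever their values, out of 36564 genes with a value, and all 10 were among the 11382 genes that entered the test. The control libraries 1, 2 and 3 came from hearts of ApoE-/- mice aged 32 weeks. Libraries 4, 5 and 6 came from ApoE-/- Timp3-/- mice of the same age, called double mutants below. Both genotypes therefore lack apolipoprotein E, which clears lipoproteins from the blood, and the contrast is the added loss of Timp3, a secreted inhibitor of metalloproteinases that binds to the extracellular matrix. The labels call the controls littermates. They do not say whether a library is 1 heart, so the p-values reflect only how these samples vary, which may be partly technical.

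A basement membrane is a thin sheet of matrix under endothelium and around every cardiomyocyte, smooth muscle cell and capillary. Laminins are heterotrimers of an alpha, a beta and a gamma chain that assemble into a network on the cell surface, where integrins and dystroglycan bind them. Nidogens bridge the laminin network to the type IV collagen network, and perlecan and agrin carry heparan sulfate chains that hold growth factors. In muscle, the laminin alpha 2 chain links the membrane to dystroglycan, whereas alpha 4 and alpha 5 are the chains of vessel walls.

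The deposited values are FPKM, the fragments per kilobase of transcript scaled to the mapped fragments of the library, so levels can be set beside each other across genes. A gene's value is the sum of the FPKM of its transcripts in a library. Values of single libraries are as deposited, whereas means ± SD are of FPKM after scaling between libraries (n = 3 per genotype). A library held 654 to 1339 megabases of aligned sequence, and reads per gene are not known. Timp3 itself was at 52.1, 38.0 and 36.3 FPKM in the controls, against 20.2, 28.0 and 29.6 in the double mutants, lower in all 3 but not at 0 (limma adjusted p = 0.288). Which part of Timp3 was deleted is not stated in the sources. Over all genes, 5 of 11382 passed an adjusted p of 0.05 (0.0439%), 2 lower (0.0176%) and 3 higher (0.0264%) in the double mutants.

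The promoter sequences of 4 genes are shown as examples of different results. By summed FPKM, Nid1 and Lamb1 were lower in every double mutant and Lamb2 was not. Hspg2, like Agrn, depended on how its transcripts were counted. The sequences are from RefSeq on build GRCm38.p6, read 5′ to 3′ on the gene's strand, ending before the earliest annotated start of transcription. The windows are chr13:13437352-13437550 for Nid1, chr12:31265043-31265233 for Lamb1, chr4:137468553-137468768 for Hspg2 and chr9:108479612-108479735 for Lamb2, all on the plus strand. Capitals mark GC boxes, the letters GGGCGG or, on the other strand, CCGCCC.
Nid1: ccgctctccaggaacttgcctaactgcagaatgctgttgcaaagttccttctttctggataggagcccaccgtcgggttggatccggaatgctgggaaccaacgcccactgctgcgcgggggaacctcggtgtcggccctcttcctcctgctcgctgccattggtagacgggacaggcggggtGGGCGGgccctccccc
Lamb1: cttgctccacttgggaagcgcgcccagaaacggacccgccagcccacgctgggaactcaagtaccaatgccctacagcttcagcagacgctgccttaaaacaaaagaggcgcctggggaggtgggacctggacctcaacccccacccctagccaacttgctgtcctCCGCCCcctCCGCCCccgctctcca
Hspg2: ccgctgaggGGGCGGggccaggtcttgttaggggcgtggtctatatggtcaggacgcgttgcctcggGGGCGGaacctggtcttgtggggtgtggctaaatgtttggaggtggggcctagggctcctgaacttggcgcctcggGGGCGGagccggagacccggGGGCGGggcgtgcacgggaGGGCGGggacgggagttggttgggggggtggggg
Lamb2: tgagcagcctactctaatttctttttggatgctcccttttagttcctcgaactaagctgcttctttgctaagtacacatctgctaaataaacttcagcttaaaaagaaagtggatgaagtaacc
Lama4, Lamc1 and Nid2 were not searched. Motifs were counted over the full 250 bases before the RefSeq start, of which the sequences printed are the part before the earliest annotated start. GC boxes numbered 5 in Hspg2, 4 in Lama5, 2 in Lamb1, 1 in Nid1 and 0 in Lama2 and Lamb2. Agrn has 2 promoters in the RefSeq table, with 2 and 12 GC boxes. A GC box is present in the same window of 32.7% of 32851 mouse promoters. The letters TATAAA, searched on both strands, were in none of these windows, against 12.4% of all promoters. CCAAT or its complement occurred 1 time each in Lamb1 and Nid1 and in 33.8% of all promoters. These matches describe the letters and are not evidence of binding.

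Of the 10 genes, 8 had a lower mean log2 value in the double mutants, as did 51.2% of all tested genes. None passed the adjusted threshold. In RNA of heart tissue, fewer cells of a type and less RNA per cell cannot be told apart. At an unadjusted p under 0.05, 3 were lower (Nid1, Lamb1 and Nid2) and 0 higher, beside 5.21% of all genes lower and 6.95% higher. The genotypes did not overlap after scaling for the same 3 genes, all lower in the double mutants, and for Lamb2, which was higher. Among all genes 9.21% were lower and 9.98% higher without overlap. The median log2 difference of the 10 genes was -0.23, against -0.0063 over all genes. The 10 genes have long transcripts, 4884 nt for Nid2 to 14187 nt for Hspg2. Genes with a longest transcript of 4000 to 6000 nt had a median difference of -0.04 (2123 genes), those of 6000 nt and more -0.02 (1204 genes), and those of 300 to 1000 nt 0.17 (1725 genes). The mean deviation of the 10 genes from their 6-library means was 0.02, 0.07 and 0.23 on the log2 scale in the controls and -0.11, -0.10 and -0.11 in the double mutants. Library 3 was highest.

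**Figure D1:**
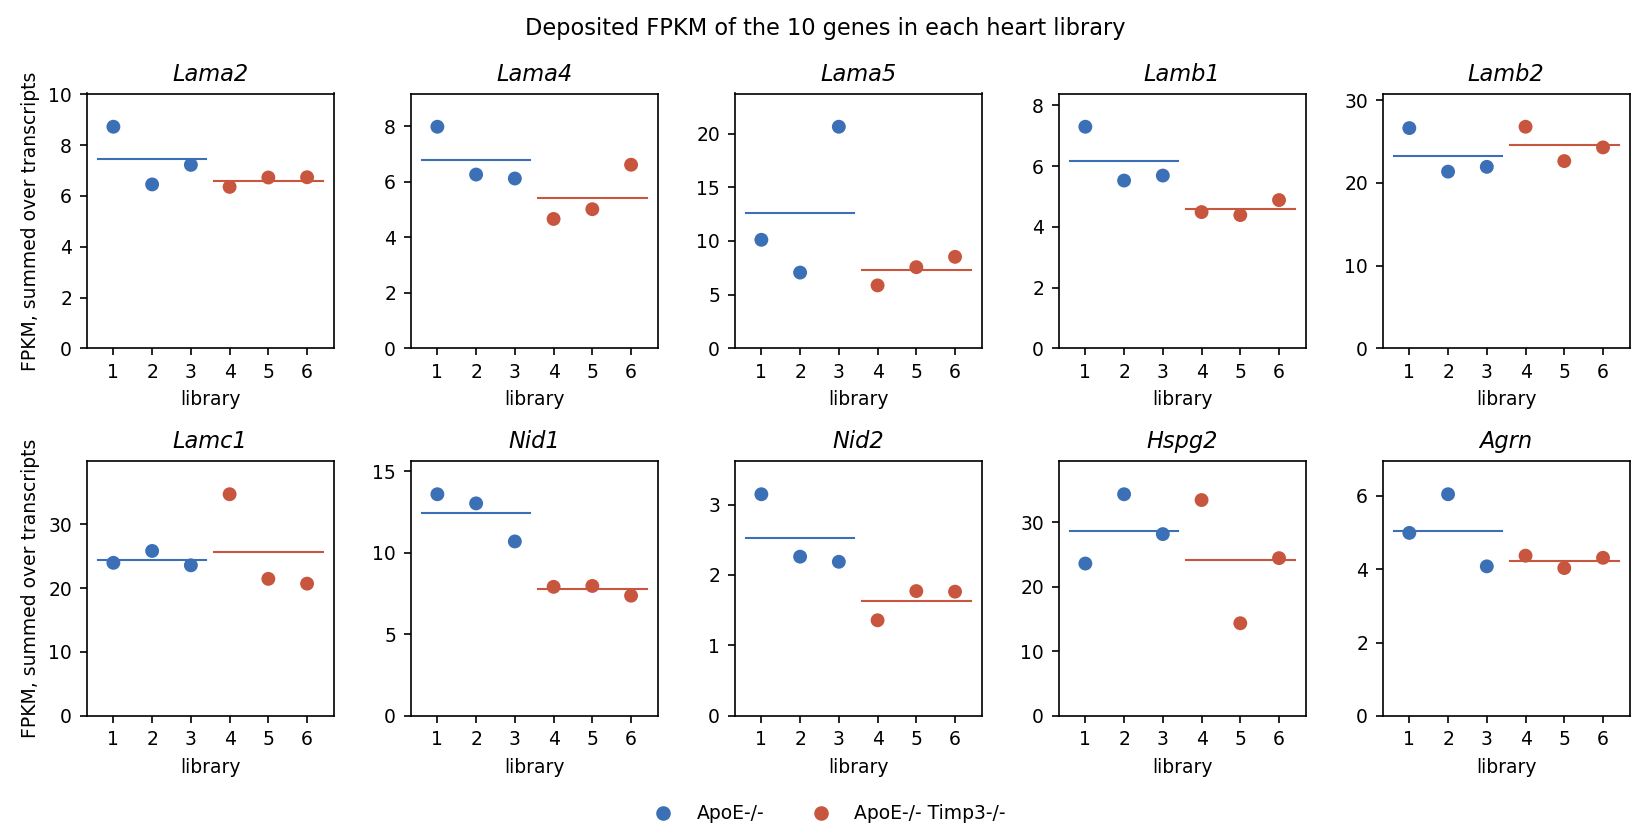
FPKM of each of the 10 genes (vertical axes, from 0) in the 6 libraries (horizontal axes), with points coloured by genotype and a line at the mean of the 3 deposited values. The nidogens and Lamb1 have all 3 double mutants below all 3 controls, whereas Lama5 in library 3 and Lamc1 in library 4 each stand above the other 5 libraries.

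Nid1 (ENSMUSG00000005397, chr13:13529869-13604542, plus strand, build NCBIM37, as are the other gene positions) encodes nidogen-1, which joins the laminin gamma 1 chain to type IV collagen. Its level was 13.6, 13.0 and 10.7 FPKM in the controls, against 7.91, 7.97 and 7.37 in the double mutants. Every double mutant was below every control. The scaled means were 12.1 ± 0.757 and 7.96 ± 0.822, a log2 difference of -0.55 (SE 0.119, 95% interval -0.83 to -0.27). The p of limma was 0.00235 before and 0.237 after Benjamini-Hochberg adjustment over all genes. Of the 10 genes, Nid1 had the smallest p, and it stayed under 0.05 unadjusted with any 1 library left out (0.00318 to 0.0118). The full-length Nid1 transcript of 6046 nt carried the whole value in 5 libraries. In library 4 it was at 5.40 FPKM, and a single-exon transcript of 2420 nt assembled at the 3′ end added 2.51. The authors' files also give confidence bounds for the full-length transcript, on FPKM before scaling. They describe the estimate within a library and do not measure the spread between libraries. For this transcript the lower bounds in controls were 12.8, 12.5 and 10.1, and the upper bounds in double mutants 5.86, 8.51 and 7.95. In the fit over 12418 single transcripts its difference was -0.73, with an adjusted p of 0.479.

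Nid2 (ENSMUSG00000021806, chr14:20570479-20631009, plus strand) encodes the second nidogen, which also binds laminin and collagen IV. It was the lowest of the 10 genes, at 3.15, 2.26 and 2.19 FPKM in the controls and 1.36, 1.77 and 1.76 in the double mutants. All 3 double mutants lay below the controls, and 1 transcript gave the whole value in each library. The scaled means were 2.44 ± 0.233 and 1.68 ± 0.329, a difference of -0.36 (SE 0.142, unadjusted p = 0.0363, limma adjusted p = 0.381). With 1 library left out the unadjusted p ran from 0.0302 to 0.105. Nid2 was the only one of the 10 genes that shared exonic bases with another tested gene, 386 nt with Rtraf on the opposite strand (mean 11.9 FPKM), and reads of those bases cannot be told apart here. Nid1 exceeded Nid2 by a ratio of 4.99 ± 0.728 in controls and 4.84 ± 0.876 in double mutants. That ratio overlapped between the genotypes, with an exact permutation p of 0.8.

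The beta 1 and beta 2 chains of laminin had differences on opposite sides of 0. Lamb1 (ENSMUSG00000002900, chr12:31950099-32014509, plus strand), the beta 1 chain, was at 7.29, 5.52 and 5.69 FPKM in the controls, against 4.48, 4.39 and 4.88 in the double mutants. Lamb2 (ENSMUSG00000052911, chr9:108382193-108392861, plus strand), the beta 2 chain of muscle and vessel basement membranes, was at 26.6, 21.4 and 21.9 FPKM against 26.8, 22.6 and 24.3. Lamb1 was thus lower in all 3 double mutants, whereas the deposited values of Lamb2 overlapped. After scaling Lamb1 was at 5.96 ± 0.422 and 4.70 ± 0.276, a difference of -0.29 (SE 0.110, unadjusted p = 0.0333, limma adjusted p = 0.372). Scaled Lamb2 was at 22.6 ± 1.31 and 25.1 ± 1.08, higher in all 3 double mutants by 0.15 (SE 0.109, limma adjusted p = 0.646). The interval for Lamb2, -0.11 to 0.40, includes 0.

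Within a library, the ratio of Lamb2 to Lamb1 does not depend on scaling. It was 3.65, 3.87 and 3.86 in the controls and 5.97, 5.16 and 4.98 in the double mutants, means of 3.79 ± 0.123 and 5.37 ± 0.530. The groups did not overlap, and the difference was 0.50 on the log2 scale. By a two-sided exact permutation test p was 0.1, the lowest value possible with 3 libraries a group, and 0.233 after Benjamini-Hochberg adjustment over the 7 ratios computed. Of the FPKM of all beta chains, Lamb1 held 16.3 ± 1.14% in controls and 10.6 ± 1.49% in double mutants, without overlap (exact permutation p = 0.1, adjusted p = 0.55 over 11 chain shares). The share of Lamb2 was 61.7 ± 2.72% against 56.7 ± 5.78%, with overlap. The rest of the beta chain FPKM was Lamb3, at 22.1 ± 3.805% and 32.7 ± 6.93%. That share came from assembled transcripts only, as the reference transcripts of Lamb3 were listed at 0 in every library. With reference transcripts alone Lamb1 held 18.8 ± 3.91% in controls and 15.8 ± 1.26% in double mutants, with overlap (exact permutation p = 0.4). Lamb2 then held 81.2 ± 3.91% and 84.2 ± 1.26%, also with overlap. The separation in Lamb1 depends on how library 2 is counted, where the reference transcript of Lamb1 was at 3.57 FPKM and a transcript of at least 80% of its length assembled in that library added 1.95. With reference transcripts alone the Lamb2 to Lamb1 ratio was 5.99 in library 2, the groups overlapped (exact permutation p = 0.4), and the Lamb1 difference was -0.13 (unadjusted p = 0.572, limma).

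**Figure D2:**
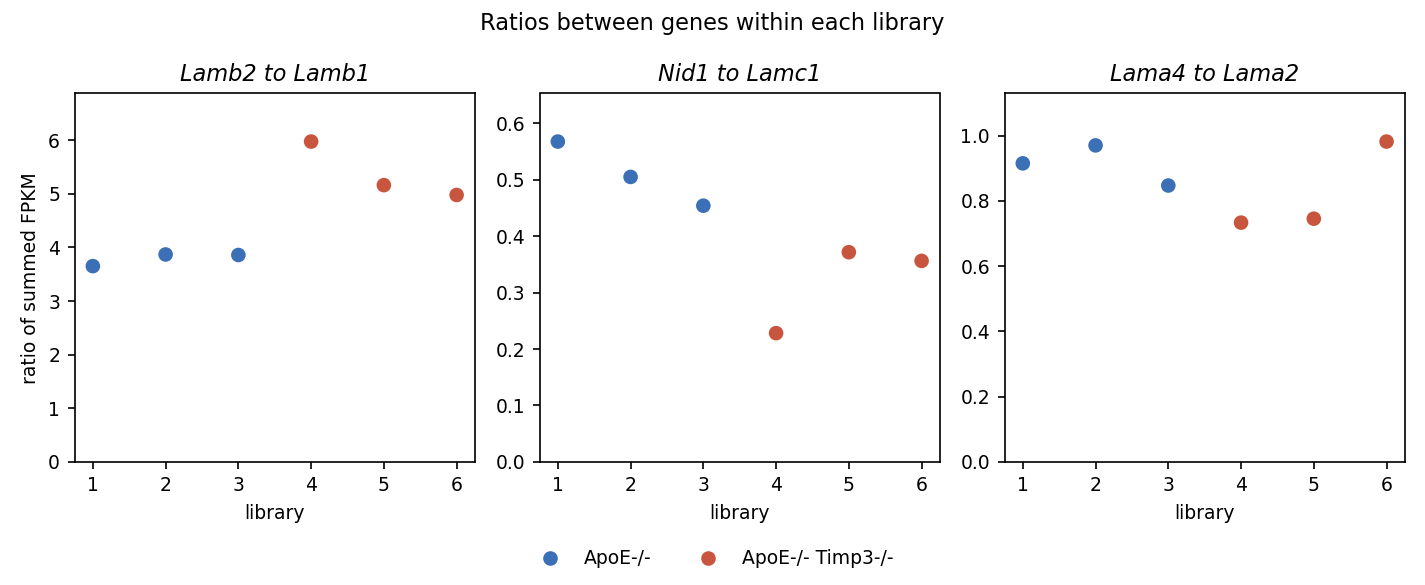
Ratios of summed FPKM between pairs of genes (vertical axes, from 0) in each of the 6 libraries (horizontal axes), coloured by genotype. The Lamb2 to Lamb1 ratio is at 3.65 to 3.87 in controls and 4.98 to 5.97 in double mutants, the Nid1 to Lamc1 ratio is lower in all 3 double mutants, and the Lama4 to Lama2 ratio overlaps.

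Lamc1 (ENSMUSG00000026478, chr1:155066052-155179916, minus strand) encodes gamma 1, the gamma chain of nearly all laminins. Its summed FPKM were 23.9, 25.8 and 23.6 in the controls and 34.7, 21.4 and 20.7 in the double mutants. Library 4 stood apart because a transcript of 3759 nt, assembled there from 6 exons at the 3′ end, added 16.8 FPKM to 17.9 of the full-length transcript. The full-length transcript alone was thus at 17.9, 21.4 and 20.7 FPKM as deposited in the double mutants, below all controls. After scaling it overlapped, with 20.5 in control library 1 and 23.9 in library 5. The sum gave a log2 difference of 0.10 (SE 0.200, limma adjusted p = 0.886), and the full-length transcript -0.23 (SE 0.164, adjusted p = 0.751). Neither the size nor the sign of a genotype difference in Lamc1 is resolved by these libraries. The ratio of Nid1 to Lamc1 was 0.568, 0.505 and 0.454 in the controls and 0.228, 0.372 and 0.356 in the double mutants. It was lower in all 3 double mutants, with a log2 difference of -0.70, or -0.57 with reference transcripts alone. Both had an exact permutation p of 0.1.

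None of the 3 alpha chains separated the genotypes by its summed FPKM. Lama2 (ENSMUSG00000019899, chr10:26701094-27336748, minus strand) encodes alpha 2, the chain of striated muscle, and ran from 6.45 to 8.72 FPKM in controls and from 6.35 to 6.73 in double mutants. Its difference was -0.08 (SE 0.125, 95% interval -0.37 to 0.21). Transcripts shorter than 80% of the longest, of 4062 to 4670 nt where they reached 1 FPKM, gave 52.6% to 73.7% of the Lama2 FPKM. Lama4 (ENSMUSG00000019846, chr10:38685321-38829994, plus strand), the alpha 4 chain of capillaries, was at 7.98, 6.26 and 6.12 FPKM in controls and at 4.66, 5.01 and 6.61 in double mutants. It was lower in libraries 4 and 5 than in any control, but library 6 lay among the controls, and the difference was -0.22 (SE 0.139, unadjusted p = 0.164 in limma). The ratio of Lama4 to Lama2 was 0.911 ± 0.0616 against 0.820 ± 0.140 (exact permutation p = 0.4).

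Lama5 (ENSMUSG00000015647, chr2:179911078-179960564, minus strand) encodes alpha 5, found in mature vessels and epithelia. It was at 10.1, 7.05 and 20.6 FPKM in the controls, against 5.86, 7.56 and 8.52 in the double mutants. The value of 20.6 in library 3 included 10.003 FPKM of a 2587-nt transcript assembled at the 3′ end in that library alone. The difference of -0.53 had the widest error of the 10 genes (SE 0.389, 95% interval -1.45 to 0.38). Without library 3 it was at -0.06, and with reference transcripts alone at 0.0086. Lama5 held 60.3% of the alpha chain FPKM in library 3 and 34.6% to 39.0% in the other 5 libraries. Without that library its share was 0.931 points higher in double mutants, where the difference was -7.02 points with all 6. The ratio of Lama5 to Lama4 overlapped by the sum (exact permutation p = 0.9). With reference transcripts alone it was 1.06, 1.13 and 1.152 in controls and 1.26, 1.51 and 1.29 in double mutants, without overlap (exact permutation p = 0.1, adjusted p = 0.2 over 6 ratios).

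Perlecan and agrin gave different pictures under the 2 ways of counting short transcripts. Hspg2 (ENSMUSG00000028763, chr4:137024634-137126545, plus strand), which encodes perlecan, was at 23.6, 34.4 and 28.2 FPKM in controls and at 33.5, 14.4 and 24.4 in double mutants. The summed values overlapped widely, with a log2 difference of -0.24 (SE 0.288, limma adjusted p = 0.788). Transcripts shorter than 80% of the longest reference transcript, which is 14187 nt, gave 49.4% to 79.8% of that FPKM in a library. In libraries 2 and 4 most of the short part was a reference transcript of 820 nt, at 21.6 and 23.1 FPKM. That transcript was listed at 0 in the other 4 libraries, where the short part came from other transcripts, of 3073 to 8619 nt. Over the 10 genes, 18 short transcripts reached 1 FPKM in a library. Of these, 16 lay at the 3′ end of their gene without reaching its 5′ end, 2 reached both ends, and 0 lay at the 5′ end alone.

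A sum of FPKM counts a short fragment as 1 full transcript. An alternative value was therefore chosen after seeing the data: FPKM times transcript length, summed over transcripts and divided by the length of the longest reference transcript. On this length-weighted scale, Hspg2 was at 15.8, 13.3 and 18.7 scaled FPKM in controls and 10.8, 12.4 and 12.6 in double mutants. All 3 double mutants lay below all controls, with means of 15.9 ± 2.70 and 11.9 ± 0.988. The difference was -0.38 (SE 0.145, unadjusted p = 0.0358, limma adjusted p = 0.356).

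Agrn (ENSMUSG00000041936, chr4:155539399-155571536, minus strand), which encodes agrin, a ligand of dystroglycan, also differed between the measures. Its summed FPKM were 4.99, 6.05 and 4.08 in controls and 4.37, 4.03 and 4.31 in double mutants, a difference of -0.13 (SE 0.140, limma adjusted p = 0.749). Short transcripts gave 59.8% of it in library 2 and 42.5% to 58.7% in the double mutants, but 0 in libraries 1 and 3. On the length-weighted scale Agrn was at 4.12, 3.50 and 4.34 against 2.49, 3.17 and 2.98. The groups did not overlap, and the difference was -0.36 (SE 0.119, unadjusted p = 0.0192, limma adjusted p = 0.308). With partial assembled transcripts left out instead, Agrn differed by 0.07 (limma adjusted p = 0.852).

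**Figure D3:**
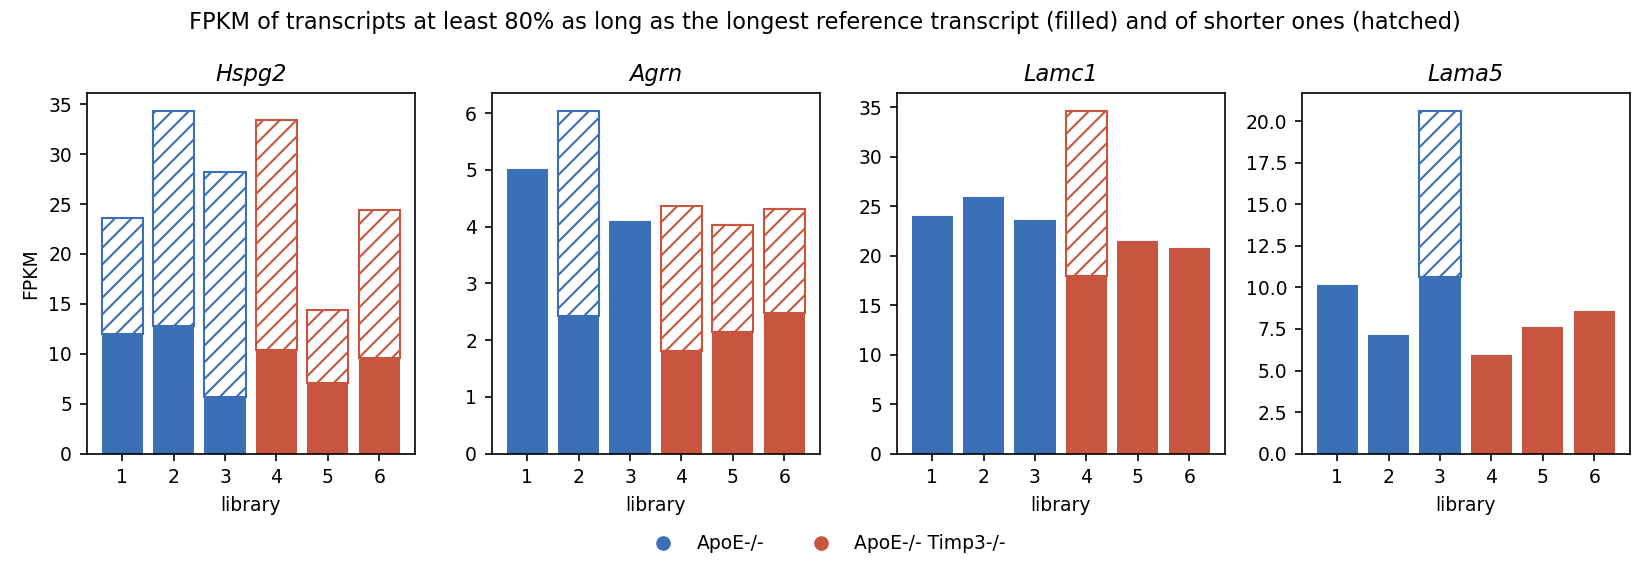
FPKM (vertical axes, from 0) of Hspg2, Agrn, Lamc1 and Lama5 in the 6 libraries, split into transcripts at least 80% as long as the longest reference transcript (filled) and shorter ones (hatched), coloured by genotype. Short transcripts make up 49.4% to 79.8% of Hspg2 in every library, but appear in Lamc1 only in library 4 and in Lama5 only in library 3.

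Under the length-weighted value, 9 of the 10 genes were below 0 (51.2% of 11050 genes tested that way), 5 were lower at an unadjusted p under 0.05 (5.58% of all genes) and 5 were lower without overlap (9.72%). The 5 were Nid1, Nid2, Lamb1, Hspg2 and Agrn. None passed the adjusted threshold, as 0.0543% of all genes did, and the count at an unadjusted p under 0.05 ran from 2 to 5 with 1 library left out. Without library 1, 3 or 4 it was 2, and without library 6 it was 3. The median was -0.32. The Lamb2 to Lamb1 ratio differed by 0.53 and the Nid1 to Lamc1 ratio by -0.67 on this scale, both without overlap. The ratio of Hspg2 to Agrn was 3.98 ± 0.285 in controls and 4.16 ± 0.231 in double mutants, with overlap (exact permutation p = 0.3).

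**Figure D4:**
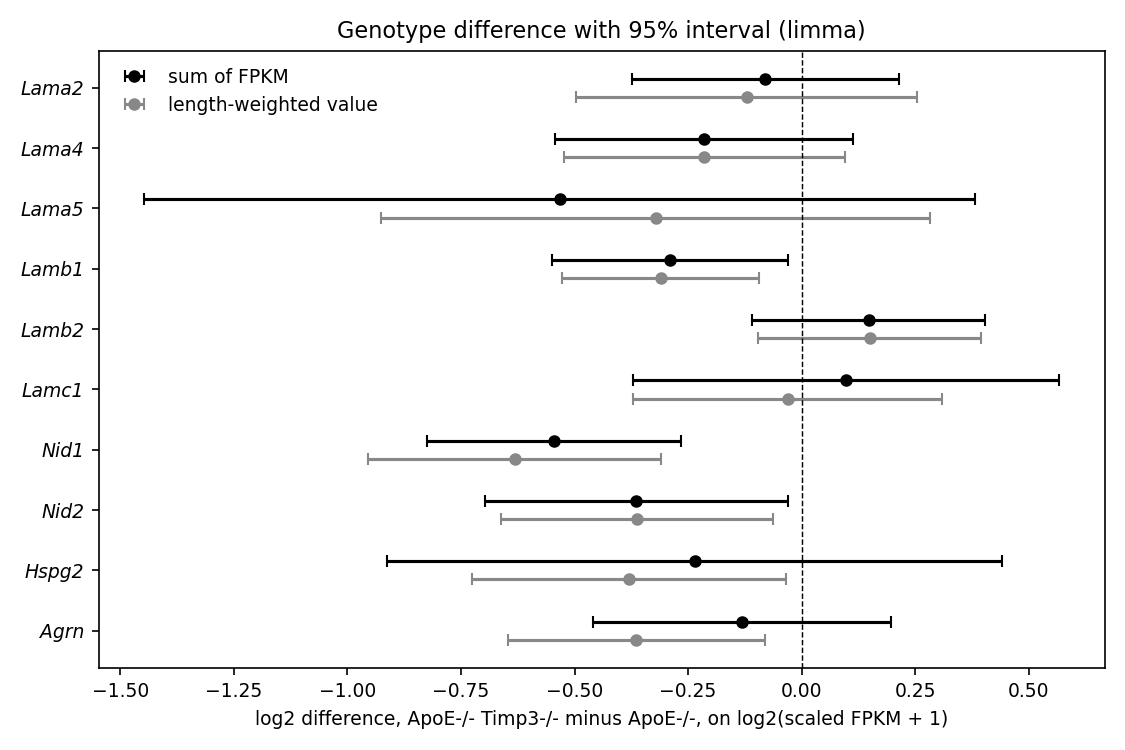
Log2 differences (horizontal axis, double mutants minus controls, on log2(scaled FPKM + 1)) of the 10 genes with 95% intervals from limma, for the sum of FPKM (black) and the length-weighted value (grey). Nid1 is farthest from 0 relative to its interval under both, and the intervals of Hspg2 and Agrn include 0 for the sum but not for the length-weighted value.

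Ordered by mean scaled FPKM over the 6 libraries, Hspg2 (26.3), Lamc1 (24.98) and Lamb2 (23.9) were highest, at percentiles 88.2, 87.7 and 87.1 of tested genes. Lama5 (10.1), Nid1 (10.01), Lama2 (7.01), Lama4 (6.06), Lamb1 (5.33), Agrn (4.62) and Nid2 (2.06) followed. In the controls, the libraries of neighbouring genes in this order overlapped except between Nid1 and Lama2 and between Agrn and Nid2. In the double mutants the upper 3 genes did not overlap the rest, Agrn did not overlap Nid2, and the libraries of Nid1 overlapped those of Lama5 and Lama2. On the length-weighted scale Hspg2 was below Lamc1, at 15.9 against 23.8 in controls and 11.9 against 23.3 in double mutants.

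Of the other laminin chains, Lama1, Lama3 and Lamc3 were too low to be tested, at 0.33 FPKM or less in every library. Lamb3, the beta 3 chain of epithelial laminin, was at 8.08 ± 1.37 in controls and 14.9 ± 4.95 in double mutants (difference 0.77, limma adjusted p = 0.288). Its value rested wholly on transcripts assembled within libraries, since its reference transcripts were listed at 0 in all 6. With partial assembled transcripts left out the Lamb3 difference was -1.27.

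Of the collagens of the basement membrane, all 6 tested of 8 listed had a difference below 0 (51.2% of all genes), 3 of them at an unadjusted p under 0.05 (5.21% of all genes), with a median of -0.49. On the length-weighted value 5 of 6 were below 0. Col4a1, the main chain of type IV collagen, was at 33.6 ± 8.90 in controls and 13.9 ± 2.42 in double mutants, below all controls in every double mutant (difference -1.20, limma adjusted p = 0.227). Col15a1, a collagen of muscle and capillary basement membranes, was at 11.9 ± 0.338 and 7.16 ± 2.43 (difference -0.70). Col4a2 was at 27.1 ± 14.3 and 13.0 ± 4.93, with overlap and with library 2 highest. The ratio of Col4a1 to Lamc1 was 1.28, 1.70 and 1.22 in controls and 0.492, 0.512 and 0.624 in double mutants, an exact permutation p of 0.1 and adjusted p of 0.233.

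Proteins that associate with the basement membrane were 12 of 16 tested below 0, with 6 lower at an unadjusted p under 0.05 and a median of -0.23. The shares over all genes were 51.2% and 5.21%. The counts and the median include Sparc, at 114, 0 and 84.9 FPKM in controls and 71.6, 47.3 and 53.3 in double mutants. Its 0, in library 2, can be a failed estimate. Pxdn, peroxidasin, which crosslinks collagen IV, was at 5.20 ± 0.547 and 3.34 ± 0.361 (difference -0.51, limma adjusted p = 0.256). Papln was at 1.39 ± 0.246 and 0.635 ± 0.163, and Fbln2, fibulin-2, a binding partner of nidogen and laminin, at 15.2 ± 3.62 and 9.89 ± 1.39. All 3 were lower in each double mutant. Enzymes that build or trim heparan sulfate were 9 of 15 below 0, with 1 lower at an unadjusted p under 0.05, near the share over all genes, a median of -0.13 and no gene past the adjusted threshold. That 1 was Hs3st1, a heparan sulfate sulfotransferase, at 2.30 ± 0.239 and 1.33 ± 0.307. Among proteases of the matrix and their inhibitors, 9 of 11 were below 0 and 2 at an unadjusted p under 0.05, Mmp14 (3.68 ± 0.422 against 2.39 ± 0.565) and Ctsl, cathepsin L (72.4 ± 18.2 against 48.8 ± 5.24).

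Of 10 tested laminin and agrin receptors, 3 were below 0 and 0 were at an unadjusted p under 0.05 in either direction, with a median of 0.14. On the length-weighted value 4 were below 0 and 1 was lower at an unadjusted p under 0.05, with a median of 0.079. That 1 was Itga6, whose difference was -0.36 on this value (unadjusted p = 0.0155, limma) but 0.57 by the sum. Dag1, dystroglycan, was at 34.9 ± 3.47 and 36.1 ± 6.19, and Itgb1, the common beta chain of the laminin integrins, was at 56.8 ± 2.90 and 52.4 ± 4.33. Sdc4, syndecan-4, was at 9.37 ± 0.663 and 11.7 ± 1.41. Of the dystrophin complex, 4 of 10 were below 0 and 2 had an unadjusted p under 0.05 with higher values, Dtna (6.25 ± 0.514 against 8.29 ± 0.487) and Sgca, alpha-sarcoglycan (35.9 ± 7.02 against 50.4 ± 7.81). Among enzymes that glycosylate dystroglycan, 6 of 11 were below 0 with a median of -0.03. Over all tested genes 51.2% were below 0, and at an unadjusted p under 0.05 5.21% were lower and 6.95% higher. No gene of these companion lists passed the adjusted threshold with libraries weighted equally. With libraries weighted by their spread, where 103 of all genes passed, Col4a1 did (adjusted p = 0.0374, limma).

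**Figure D5:**
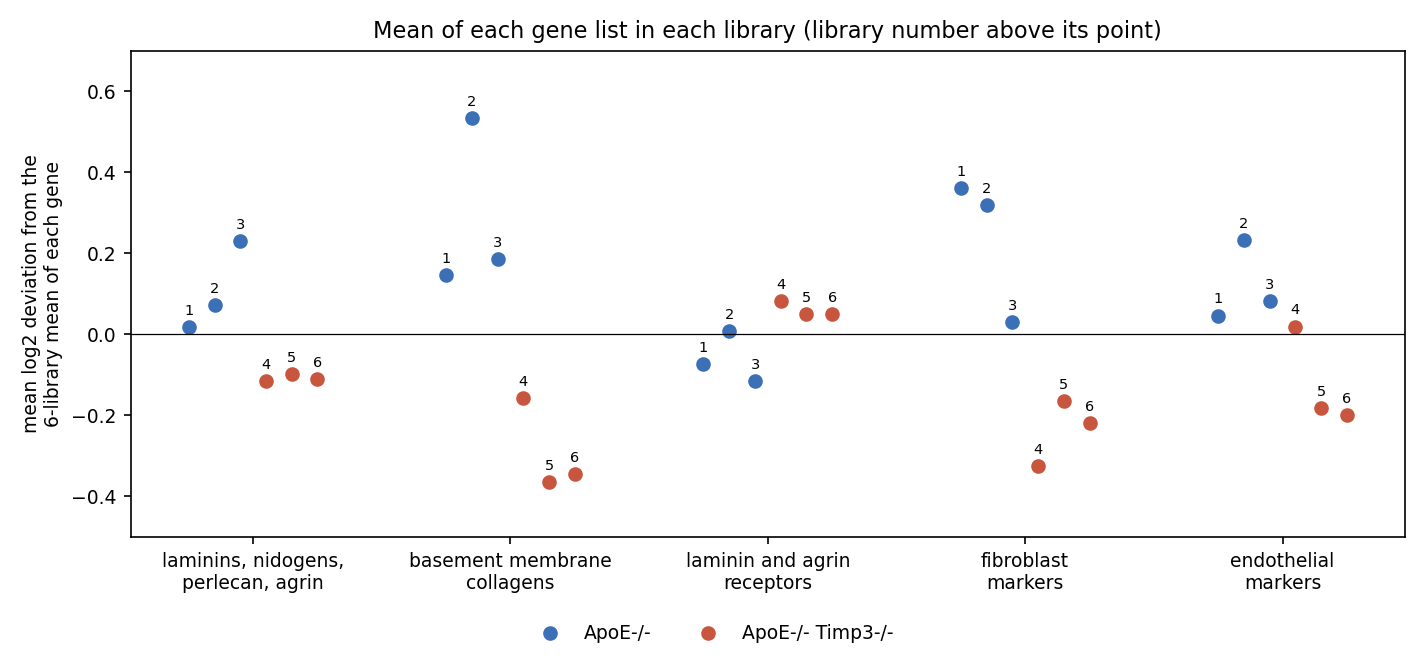
Mean log2 deviation from each gene's 6-library mean (vertical axis), for 5 gene lists (horizontal axis) in each library, numbered and coloured by genotype. The 10 genes and the basement membrane collagens are lower in all 3 double mutants, as are fibroblast and endothelial markers, whereas the receptors are at 0.05 to 0.08 in the double mutants and at -0.11 to 0.01 in the controls.

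The shares over all tested genes were 51.2% below 0, and at an unadjusted p under 0.05 they were 5.21% (lower) and 6.95% (higher). Of the fibroblast markers, all 12 were below 0 (6 at an unadjusted p under 0.05, median -0.37), with a summed scaled level of 721 to 853 FPKM in controls and 649 to 774 in double mutants. Of 14 endothelial markers 11 were below 0 (4 at an unadjusted p under 0.05, median -0.27), with a summed level of 209 to 254 against 181 to 217. Of 10 mural cell markers 7 were below 0 (at an unadjusted p under 0.05, 4 were lower and 1 was higher), with a summed level of 713 to 1301 against 869 to 1032. Most of the mural sum was Des, at 495 to 903 FPKM as deposited in controls and 570 to 749 in double mutants. That sum therefore mainly describes 1 gene. No marker of these 3 lists was at 0 in a library. No marker passed the adjusted threshold with libraries weighted equally. With libraries weighted by their spread the fibroblast collagen Col3a1 (adjusted p = 0.0492, limma) and the endothelial cadherin Cdh5 (0.0494) did. Cardiomyocyte markers, of cells that also lie in a basement membrane, were 2 of 10 below 0 (median 0.14), summed to 12091 to 15057 against 14647 to 18321. Their median depended on the processing, at -0.21 with quantile normalization and 0.43 with the strongest transcript only. The part of these cell types in the lower nidogen and Lamb1 values was not tested.

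The libraries also differed in markers of atrial, blood and fat cells. Atrial markers were high in libraries 1, 5 and 6 (mean log2 deviation 1.71, 1.72 and 2.34) and low in libraries 2, 3 and 4 (-1.82, -2.34 and -1.60). They summed to 1479, 811 and 124 in controls and 175, 995 and 1465 in double mutants. Nppa, 1 of these markers, did not follow that division. As deposited it was at 802 FPKM in library 2, against 823, 491 and 852 in libraries 1, 5 and 6 and 104 and 142 in libraries 3 and 4. Within libraries 1, 5 and 6 Nid1 was at 11.6 scaled FPKM in the control and 8.88 and 7.28 in the double mutants. Within libraries 2, 3 and 4 it was at 12.9 and 11.6 in the controls and 7.73 in the double mutant. Every double mutant was below every control for Nid1, so any such division gives this order and it cannot bear on atrial tissue. In each of these sets 1 genotype had only 1 library, and only Nid1 is given. The part of atrial tissue in the Nid1 values was not tested. Red cell markers summed to 23494 in library 4 and to 207 to 2131 in the others, and adipocyte markers to 141 in library 1 and to 1.16 to 30.5 in the others. Without library 1, 3, 4 or 6, the number of the 10 genes lower at an unadjusted p under 0.05 was 1. It was 3 without library 2 and 2 without library 5. Nid1 was under that threshold each time.

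The genes outside the list whose 6-library profile lay nearest to the mean profile of the 10 genes were Zfp180, Camk2d, Zfyve9, Ccng2 and Hectd3. Their mean absolute distance from it over the 6 libraries was 0.017, 0.025, 0.028, 0.028 and 0.030 on the log2 scale. They were chosen for that likeness, so their genotype differences are no separate result. Camk2d, a calcium-dependent kinase of cardiomyocytes, was at 19.2 ± 1.60 in controls and 16.2 ± 0.249 in double mutants.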

How the data were processed

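Messenger RNA was sequenced in 6 mouse heart libraries, 3 ApoE-/- and 3 ApoE-/- Timp3-/-. The authors deposited 1 transcript file per library, with FPKM and coverage for each transcript, per the file headers and attributes. Per the submitters' processing notes, TopHat, Bowtie and Cufflinks were used with build NCBIM37. The sources used here give neither versions nor settings nor the use of strand. FPKM were normalized within each library by the authors, and no read counts per gene were used.

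Each reference transcript was assigned by transcript ID (82348), gene ID (5266) or exon overlap of at least 50% (6239), and 817 stayed unassigned. Assembled transcripts numbered 70603, of which 39120, each 300 nt or longer, were assigned by overlap. Assembled transcripts held 34.0% to 39.6% of aligned bases, and 74.8% to 81.2% of the bases went to genes. FPKM were summed by gene, scaled by the median of ratios, and compared as log2(scaled FPKM + 1) by a two-sided limma test (limma 3.58.1, R 4.3.3, intensity trend, Benjamini-Hochberg adjustment at 0.05) for genes with a mean FPKM of at least 1. Fold changes on this scale understate those of low genes. Ratios and shares were tested by exact permutation, whose smallest p with 3 against 3 libraries is 0.1. An FPKM of 0 can be a failed estimate: Sparc was listed at 0 in library 2. The procedure was tested on simulated data.

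The 10 genes, the 19 companion lists and the tests were chosen with earlier results of these data known. All 10 genes are named, with Timp3, the genes nearest in profile (5) and, of each list described, those among the 3 smallest p that are given; Dag1 and Itgb1 fall outside that rule and were picked with their values in view. Some genes that the rule takes are left out of the text. The libraries carry no number shared between groups, so the fit had no block.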

Additional observations from a re-analysis of the deposited data

How the results depend on the processing

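The alternatives changed 1 choice at a time, and 2 of them, the length-weighted value and leaving out partial assembled transcripts, were chosen after seeing the data. Nid1, Nid2, Lama4 and Lamb1 were lower in the double mutants, and Lamb2 higher, under every alternative run for them and with each library left out. No member passed the adjusted threshold under any setting. The lowest adjusted p was 0.0646, for Nid1 with libraries weighted by their spread.

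The number of genes passing over all tested, 5, was 3 with a pseudocount of 0.1, 9 with no filter on low values, 1 with a mean FPKM of at least 5, 3 with the strongest transcript only, 103 with libraries weighted by their spread and 0 with genes listed at 0 in a library left out; with 1 library left out it was 3 to 11. The number of the 10 genes lower at an unadjusted p under 0.05, 3, was 1 with a mean FPKM of at least 5 (8 of the 10 genes tested), 1 with reference transcripts only, 1 with the strongest transcript only and 5 with the length-weighted value. It was 1 to 3 with 1 library left out, and on the length-weighted value 2 to 5. The median of the 10 genes, -0.23, was -0.079 with the strongest transcript only and -0.32 with the length-weighted value.

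Some directions turned. With reference transcripts only, the log2 difference was 0.13 for Lama2, 0.0086 for Lama5, -0.22 for Lamc1, 0.99 for Agrn and 0.30 for Hectd3. With the strongest transcript only, it was 0.74 for Lama2, -0.23 for Lamc1, 0.019 for Hspg2, 0.00303 for Agrn, 0.23 for Extl2 and for B4galt7, 0.36 for Zfp180, 0.19 for Ccng2 and 0.30 for Hectd3. With libraries weighted by their spread, it was -0.084 for Lamc1. With the length-weighted value, it was -0.36 for Itga6 and -0.031 for Lamc1. With partial assembled transcripts left out, it was -1.27 for Lamb3, 0.25 for Lama2, -0.21 for Lamc1 and 0.068 for Agrn. With 1 library left out, Lamc1 ranged from -0.10 (without library 4) to 0.25 and Hspg2 from -0.47 to 0.025 (without library 5). On the length-weighted value Lamc1 ranged from -0.13 to 0.063 and Lama2 from -0.24 to 0.0025. The share of alpha chains held by Lama4 differed by -5.09 points and that of Lama5 by 1.503 with reference transcripts only. With 1 library left out they ranged from -2.75 to 4.06 and from -11.5 to 0.93, turning without library 3. The Lamb2 share of beta chains differed by 3.03 points with reference transcripts only and by 1.93 with the length-weighted value. The median of the cardiomyocyte markers, 0.14, was -0.21 with quantile normalization. Beyond what each alternative leaves out by construction, the cause was not tested. No paired analysis was possible because the libraries are numbered 1 to 6 with no number shared between the genotypes. With 3 libraries a group and no reads per gene, a difference in a gene such as Lama5, Lamc1 or Hspg2 is not resolved here.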
